A study of Cucumis sativus with 12 samples.

Results

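The 5 gene models described here are named as linoleate 9S-lipoxygenases and had many more reads in the cucumber stigma and style of the Csspt Csalc double mutant than in wild type. The models are Csa2G023900, Csa2G023910, Csa2G023920, Csa2G028480 and Csa2G028500, which are 5 of 24345 genes in the deposited table and 5 of 45 genes with a lipoxygenase name. They were chosen by their higher levels in the double mutant than in wild type, so that difference, and any difference that shares its libraries, is a description with no test. All 5 passed the filter on low counts, Csa2G023910 through the double mutant alone.

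Lipoxygenases add oxygen to the polyunsaturated fatty acids linoleic and linolenic acid. A 9-lipoxygenase oxygenates carbon 9 of the chain, whereas a 13-lipoxygenase oxygenates carbon 13 and, in the plastid, feeds jasmonate synthesis. The resulting hydroperoxides are substrates of hydroperoxide lyases, divinyl ether synthases, allene oxide synthases and peroxygenases, and cleavage of 9-hydroperoxides gives the aldehydes of cucumber aroma.

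Messenger RNA was read from stigma and style at anthesis, when the flower opens, in 12 libraries of 4 genotypes, with 3 biological replicates each. The genotypes were the double mutant (CssptCsalc-/-), the single mutant of SPATULA (Csspt-/-), the single mutant of ALCATRAZ (Csalc-/-) and wild type (WT). Both genes encode bHLH transcription factors, known in Arabidopsis from the development of the carpel and the fruit. The labels state neither the kind of allele nor how many lines or plants stand behind a replicate. The libraries held 32155631 to 37986853 counts. Csalc replicate 3 stood apart, with correlations of log2 CPM (counts scaled to a common library size) of 0.81 to 0.856 to the other libraries, against 0.927 to 0.985 among those. In the annotation, 2 genes are named SPATULA and 0 ALCATRAZ. Csa2G356640, the more abundant of them, had 28.1, 26.6 and 18.9 CPM in the double mutant, 47.9, 45.2 and 42.3 in Csspt, 27.7, 28.3 and 10.5 in Csalc, and 49.3, 47.4 and 46.9 in WT. It was thus low in the libraries labelled Csalc and double mutant and not in those labelled Csspt. The labels do not say which gene model carries which mutation, and a mutation need not lower a transcript, so these levels do not check the genotype labels. Of the carpel markers, 4 of 18 were at 0 in every library. Among these, CsaUNG003120 is a hypothetical protein (CEUSTIGMA) that entered the list by the letters of its name and is no known marker. AGAMOUS (Csa6G520410), which specifies carpels, averaged 201 CPM in WT, while the genes named stigma-specific STIG1-like averaged 0 to 4.78 CPM there.

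The 5 models fall into 2 runs of neighbouring IDs and, by the deposited annotation, have 2 closest cucumber gene entries. The closest KEGG cucumber entry of Csa2G023900, Csa2G023910 and Csa2G023920 was 1 gene, LOC101207163. That of Csa2G028480 and Csa2G028500 was LOC101206327, shared with Csa2G028490, a model that lies between them in ID order and was not chosen. The lengths implied by the deposited counts and FPKM (fragments scaled to transcript length and library size) were 625, 192 and 320 bases for Csa2G023900, Csa2G023910 and Csa2G023920. They were 740 bases for Csa2G028480 and 408 bases for Csa2G028500. The median over 18054 genes was 1681 bases, so all 5 models are short, and the members may not be 5 separate genes. In the RefSeq annotation of assembly Cucumber_9930_V3, both entries lie on chromosome 2 in a run of 13 genes, 10 of which are the closest entries of 19 lipoxygenase models.

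Within the first run, Csa2G023900, named probable linoleate 9S-lipoxygenase 5, was the most abundant member per length in the double mutant. It had 86.1, 60 and 60.2 CPM in the double mutant, 13.2, 2.06 and 2.76 in Csspt, 2.52, 2.25 and 7.2 in Csalc, and 0.753, 1.14 and 1.34 in WT. Every double mutant library lay above every other library, and every single mutant library lay above every WT library. Its log2 fold change in the double mutant against WT was 5.99 ± 0.82 (SE), a fold of 63.7. In bulk tissue, more cells that use a gene and more RNA per cell cannot be told apart, and this holds for each value here.

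Csa2G023920, named linoleate 9S-lipoxygenase B, had a similar pattern at a lower count. It had 32.7, 21 and 27.9 CPM in the double mutant, 4.65, 0.619 and 1.01 in Csspt, 0.733, 1.07 and 1.74 in Csalc, and 0.232, 0.349 and 0.295 in WT. The highest Csspt library was again replicate 1 and the highest Csalc library replicate 3, and no double mutant library overlapped another genotype. The log2 fold change in the double mutant against WT was 6.53 ± 0.79, a fold of 92.3.

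Csa2G023910, named linoleate 9S-lipoxygenase A, was listed with reads in the double mutant and in no other genotype. It had 841, 484 and 581 counts in the double mutant, or 21.3, 13 and 16.6 CPM, and 0 counts in all 9 other libraries. If the listed zeros are true counts, a floor of 3 counts over each group makes the double mutant level at least 548-fold higher than in WT, 558-fold higher than in Csspt and 601-fold higher than in Csalc. These bounds cover counting error only, scale with the number of libraries in the group at 0, and do not hold if reads of this model were assigned elsewhere.

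In the second run, Csa2G028480, also named probable linoleate 9S-lipoxygenase 5, was lower overall and was high in 1 Csalc library. It had 8.77, 4.55 and 5.36 CPM in the double mutant, 1.05, 0.913 and 1.57 in Csspt, 0.51, 0.474 and 10.2 in Csalc, and 0, 0.127 and 0.262 in WT. Csalc replicate 3 exceeded every double mutant library, while the other Csalc libraries lay below every Csspt library. The log2 fold change in the double mutant against WT was 5.58 ± 1.35, a fold of 47.8 on 12 counts over the WT libraries.

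Csa2G028500, named linoleate 9S-lipoxygenase 1, had the lowest counts of the members. It had 3.14, 1.07 and 2.08 CPM in the double mutant, 0.308, 0.177 and 0.377 in Csspt, 0.159, 0.355 and 1.67 in Csalc, and 0, 0 and 0.131 in WT. Csalc replicate 3 lay within the range of the double mutant, and the remaining single mutant libraries lay below it. The log2 fold change in the double mutant against WT was 5.52 ± 1.20, a fold of 46 on 4 counts over the WT libraries. All 5 members were called higher in the double mutant, as the choice fixes, beside 3.77% of the 18850 tested genes, and all 5 had every double mutant library above every WT library, beside 27.3%.

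**Figure D1:**
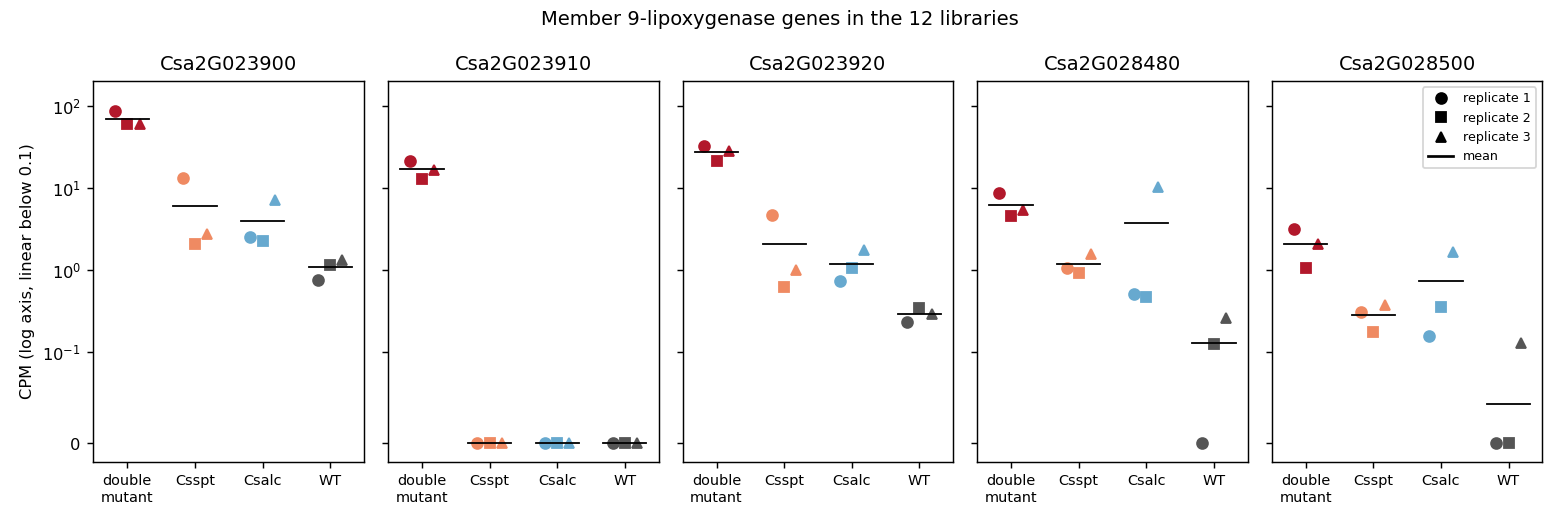
CPM of each member (log axis, linear below 0.1) in the 3 libraries of the double mutant, Csspt, Csalc and WT, with a bar at the mean. Csa2G023910 sits at 0 outside the double mutant, Csspt replicate 1 is the highest Csspt library for the other models of its run, and Csalc replicate 3 reaches the double mutant for Csa2G028480 and Csa2G028500.

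Per length, the first run reached the upper part of the transcriptome in the double mutant. Mean FPKM in the double mutant was 114 ± 27.8 (SD, n = 3) for Csa2G023900, above 96.5% of all genes in the table, against 1.62 ± 0.451 in WT, above 41.1% of genes. Csa2G023910 averaged 91.3 FPKM and Csa2G023920 87.6 FPKM in the double mutant, so the 3 models of this run lay close together per length. Csa2G028480 and Csa2G028500 averaged 8.71 and 5.29 FPKM there, above 62% and 53.4% of genes. The same models averaged 0.148 and 0.0972 FPKM in WT.

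In the single mutants, the 4 members with reads lay between WT and the double mutant, apart from Csalc replicate 3 in the second run. In Csspt against WT, the log2 fold changes were 2.48 ± 0.72 for Csa2G023900, 2.83 ± 0.72 for Csa2G023920, 3.18 ± 1.30 for Csa2G028480 and 2.67 ± 1.23 for Csa2G028500. In Csalc against WT, they were 1.89 ± 0.71 for Csa2G023900 and 2.02 ± 0.71 for Csa2G023920, or 1.14 ± 0.73 and 1.62 ± 0.85 without Csalc replicate 3. For these 4 members, every Csspt library and every Csalc library exceeded every WT library, as was so for 15.4% and 12.3% of tested genes. The 4 have only 2 closest gene entries. For Csa2G028500 the gap was small, with 5 counts in Csalc replicate 1 and 6 in Csspt replicate 2 against 4 in WT replicate 3. The WT libraries took part in the choice of the members, so no test was made.

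The second run depended on Csalc replicate 3 in this comparison. Csa2G028480 had a log2 fold change in Csalc against WT of 4.85 ± 1.33 with it and 1.93 ± 0.73 without it. For Csa2G028500 the values were 4.02 ± 1.19 and 2.53 ± 1.05. Csspt replicate 1 played a similar part in the first run: without it, the log2 fold change in Csspt against WT was 1.15 for Csa2G023900 and 1.45 for Csa2G023920.

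The estimates of the double mutant over each single mutant were larger in the first run than in the second. Against Csspt, the log2 fold changes in the double mutant were 3.51 ± 0.72 for Csa2G023900, 3.70 ± 0.67 for Csa2G023920, 2.40 ± 1.10 for Csa2G028480 and 2.86 ± 0.97 for Csa2G028500. Without Csspt replicate 1, those of the first run were 4.83 and 5.06. Against Csalc, they were 4.10 ± 0.74 for Csa2G023900 and 4.51 ± 0.69 for Csa2G023920, with no overlap of libraries, or 4.84 and 4.90 without Csalc replicate 3. For Csa2G028480 and Csa2G028500 they were 0.73 ± 1.04 and 1.51 ± 0.90 with overlapping libraries, and 3.65 ± 0.60 and 3.00 ± 0.79 without Csalc replicate 3. Whether the runs differ in this respect was not tested.

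The mean level in the double mutant can be set beside the WT mean plus the differences of both single mutants from it. The double mutant and WT levels chose the members, so this is a description. For Csa2G023900 the double mutant mean was 68.8 CPM and that sum was 8.93 CPM, a ratio of 7.7. For Csa2G023920 the values were 27.2 and 2.98 CPM, a ratio of 9.12. Csa2G028480 had 6.23 CPM in the double mutant beside a sum of 4.78, a ratio of 1.3, and Csa2G028500 had 2.1 beside 0.972, a ratio of 2.16. Without Csalc replicate 3, chosen after the values had been seen, the ratios of the second run were 4.05 for Csa2G028480 and 4.19 for Csa2G028500, and those of the first run 9.38 for Csa2G023900 and 10.1 for Csa2G023920. Without Csspt replicate 1, those of the first run were 12.9 and 16. For Csa2G023910 the sum was 0 and the double mutant mean 16.9 CPM. These ratios hold for the CPM scale only. On the log2 scale with 12 libraries, Csa2G028480 rose over WT by 3.18 in Csspt, 4.85 in Csalc and 5.58 in the double mutant. Csa2G028500 rose by 2.67, 4.02 and 5.52, so for both the double mutant lay below the sum of the single mutant rises. Without Csalc replicate 3, and for Csa2G023900 and Csa2G023920 in either case, it lay above that sum.

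The difference between the single mutants is the one contrast that shares no library with the choice of the members, and it was tested across all genes. By edgeR's quasi-likelihood test, 0 of 5 members were called between Csspt and Csalc, where 0.0637% of tested genes were called. Csa2G023910 was at 0 in both and passed the filter on low counts through the double mutant alone, so it could not be called here. A call was open only to the other members, which have 2 closest gene entries. No member had an unadjusted p under 0.05, and DESeq2 called 0 members too. Csa2G023900 had a log2 fold change, Csspt over Csalc, of 0.59 ± 0.67 (95% interval -0.89 to 2.06, adjusted p = 0.685 by edgeR). Csa2G023920 had 0.81 ± 0.63 (-0.59 to 2.21, adjusted p = 0.567 by edgeR).

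The intervals for the second run were wider and lay mostly on the other side of 0. Csa2G028480 had -1.67 ± 1.08 (-4.07 to 0.72, adjusted p = 0.498 by edgeR) and Csa2G028500 had -1.35 ± 0.95 (-3.47 to 0.77, adjusted p = 0.532 by edgeR). Without Csalc replicate 3 these became 1.25 ± 0.59 and 0.14 ± 0.82, and without Csspt replicate 1 the first run became -0.74 for Csa2G023900 and -0.56 for Csa2G023920. Without Csalc replicate 3, 0 members were called, 0 had an unadjusted p under 0.05, and 0.498% of tested genes were called. The direction of each of these differences therefore rests on 1 library, and intervals this wide do not show that the single mutants act alike.

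**Figure D2:**
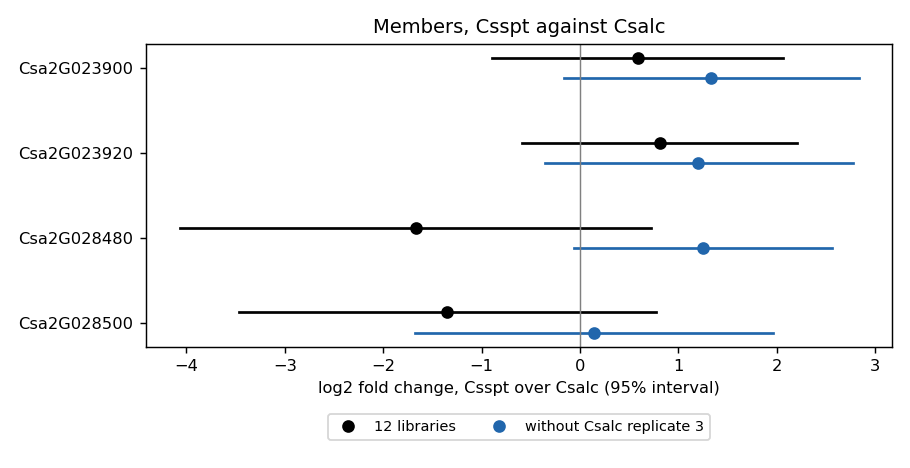
Log2 fold change of Csspt over Csalc for the 4 members with reads in these genotypes, with 95% intervals from edgeR, with all 12 libraries (black) and without Csalc replicate 3 (blue). All 8 intervals span 0, and the points of Csa2G028480 and Csa2G028500 change side without that library.

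Members varied together to different degrees. Over the 12 libraries, log2 CPM correlated at 0.99 between Csa2G023900 and Csa2G023920, and at 0.96 between Csa2G028480 and Csa2G028500. The lowest correlation was 0.62, between Csa2G023910 and Csa2G028480, and was 0.80 without Csalc replicate 3. Without that library, pairs from different runs reached 0.92, above the 0.91 between Csa2G023910 and Csa2G023920 of 1 run. These values describe 12 libraries that share the genotype differences, and models of 1 gene entry may share reads.

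The zeros of Csa2G023910 did not follow the counts of the other models with the same gene entry. In the double mutant it had 0.248, 0.216 and 0.275 counts for each count of Csa2G023900. At the summed ratio of 0.246, the 430 counts of Csa2G023900 in Csspt replicate 1 would go with 106 counts, and the 293 counts in Csalc replicate 3 with 72.1, where 0 were listed. Csa2G023920 kept between 0.22 and 0.474 counts for each count of Csa2G023900 in all 12 libraries. Csa2G028490, in the second run, was uneven within a genotype, with 90, 59 and 0 counts in the double mutant, 10, 0 and 0 in Csalc, and 0 in Csspt and WT. How the counting treated such short neighbouring models was not tested, so a listed 0 is reported here as listed and not as absence of the transcript.

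**Figure D3:**
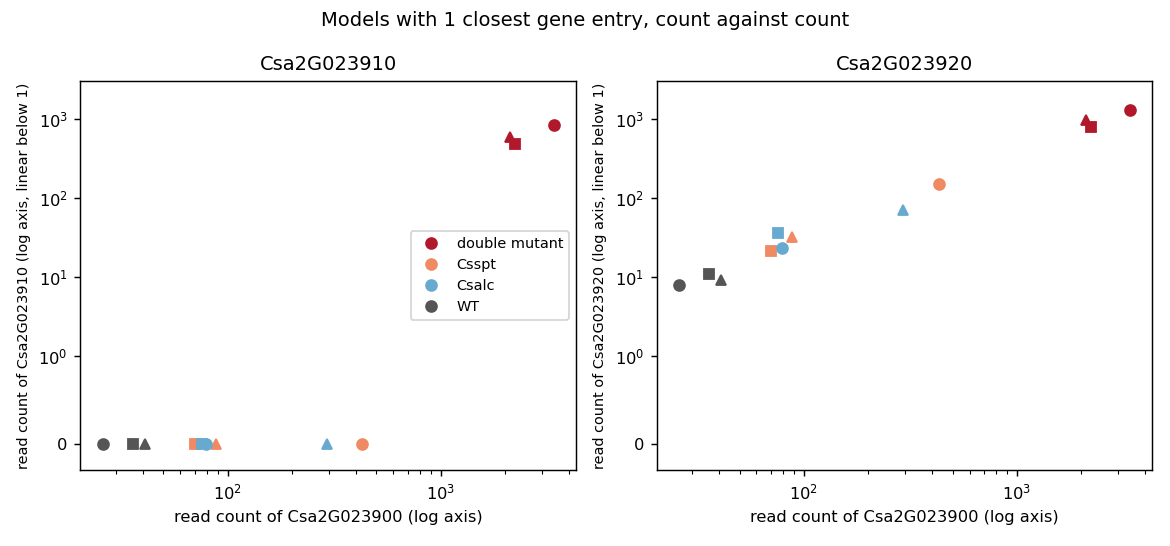
Read counts of Csa2G023910 (left) and Csa2G023920 (right) against those of Csa2G023900 in each of the 12 libraries (log axes, linear below 1 on the y axis; circles, squares and triangles are replicates 1, 2 and 3). Csa2G023920 tracks Csa2G023900 across all genotypes, while Csa2G023910 is at 0 in all 9 libraries outside the double mutant.

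Summing the models by gene entry leaves out how reads were divided among them, and was done after the values had been seen. LOC101207163 had 140, 93.9 and 105 CPM in the double mutant, 17.9, 2.68 and 3.77 in Csspt, 3.25, 3.32 and 8.94 in Csalc, and 0.984, 1.49 and 1.64 in WT. LOC101206327 had 14.2, 7.2 and 7.45 CPM in the double mutant, 1.36, 1.09 and 1.95 in Csspt, 0.988, 0.829 and 11.9 in Csalc, and 0, 0.127 and 0.393 in WT. The log2 fold change in the double mutant against WT was 6.36 ± 0.81 for LOC101207163 and 5.80 ± 1.27 for LOC101206327. Between Csspt and Csalc, edgeR gave 0.65 ± 0.65 (adjusted p = 0.65) for LOC101207163 and -1.65 ± 1.01 (adjusted p = 0.481) for LOC101206327.

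The members took a larger part of all lipoxygenase counts in the double mutant. They held 12, 10.8 and 16.1% of the counts of the 45 lipoxygenase genes there, 3.39, 0.651 and 0.894% in Csspt, 0.61, 0.513 and 1.41% in Csalc, and 0.19, 0.348 and 0.398% in WT. Most lipoxygenase reads in the double mutant thus came from other genes. Those genes summed to 1116, 819 and 586 CPM in the double mutant and to 516, 464 and 508 CPM in WT, and to 1456 CPM in Csalc replicate 3.

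Of the models beside the members in the chromosome 2 run, some had too few reads to show a pattern, and others shared part of the members' pattern. Csa2G023870 had 0 counts and Csa2G023890 had 3 counts over the 12 libraries. LOX2, the RefSeq gene next to LOC101207163 and the closest entry of Csa2G023940 and Csa2G024440, was higher than either member entry in WT. Csa2G023940 had 273, 93.1 and 45.4 CPM in the double mutant, 43.1, 24.1 and 35.2 in Csspt, 39.2, 20.5 and 171 in Csalc, and 9.38, 32.8 and 19 in WT, with a log2 fold change in the double mutant against WT of 2.75 ± 0.87 (adjusted p = 0.0846 by edgeR, 0.00811 without Csalc replicate 3). Csa2G024440 gave 2.56 ± 0.77 (adjusted p = 0.0719, and 0.00815 without that library), and Csa2G028460, before the second run, gave 4.25 ± 1.14 (adjusted p = 0.0504, and 0.00831). LOC105434408, the closest entry of Csa2G028460, was called when its 3 models were summed (4.32 ± 1.12, adjusted p = 0.044 by edgeR). Like the member entries, LOX2 and LOC105434408 had every double mutant library above every WT library, as had 27.3% of tested genes. Within each single mutant, both were highest in Csspt replicate 1 and Csalc replicate 3, as LOC101207163 was.

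At the ends of the run, no gene was called with 12 libraries. Csa2G023340, another 9S-lipoxygenase name, had 92.6, 139 and 124 CPM in the double mutant against 180, 155 and 159 in WT, a log2 fold change of -0.48 ± 0.43 (adjusted p = 0.534 by edgeR, and 0.0142 without Csalc replicate 3). The 5 IDs after the second run, none of them a lipoxygenase, had log2 fold changes of -1.27 to 0.12 in the double mutant against WT, and none was called by edgeR. Without Csalc replicate 3, Csa2G030040 (-1.27, adjusted p = 0.00587) and Csa2G030010 (-0.39, adjusted p = 0.00259) were called lower. LOC101222652, the last entry of the run, gave 1.10 ± 1.23 (adjusted p = 0.62). The ribosomal protein gene Csa2G023860, which lies among the lipoxygenase models before the first run, gave -0.03 ± 0.15.

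**Figure D4:**
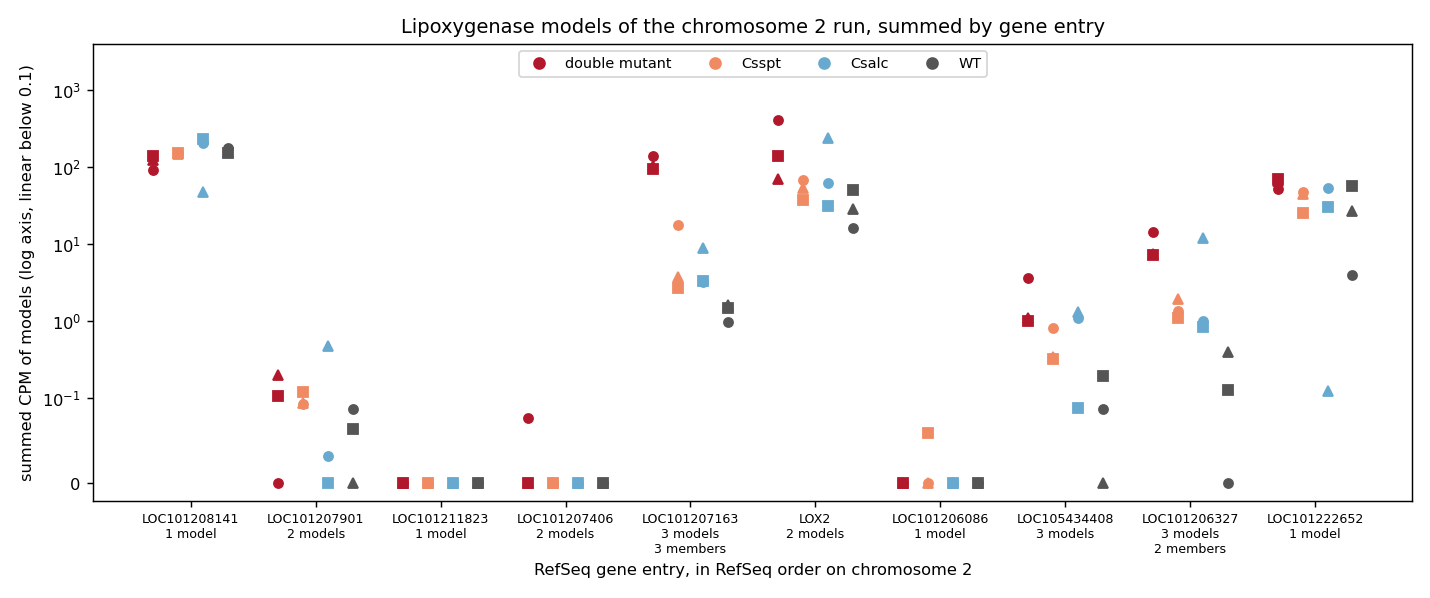
Summed CPM of the lipoxygenase models of each RefSeq entry of the chromosome 2 run, in RefSeq order (log axis, linear below 0.1), for each library of the double mutant, Csspt, Csalc and WT. The entries of the members, LOC101207163 and LOC101206327, have all double mutant libraries above all WT libraries. So have LOX2 and LOC105434408, which hold no member, and 27.3% of tested genes. LOC101208141 at 1 end has its double mutant libraries just below those of WT, and LOC101211823 is at 0. Circles, squares and triangles are replicates 1, 2 and 3.

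Of the 40 other lipoxygenase genes, 12 were at 0 in every library and 15 could be tested. In the double mutant against WT, 3 rose and 0 fell by edgeR, where 7.18% of tested genes were called, and the median log2 fold change was 2.43, against 0.03 over all tested genes. Without Csalc replicate 3, 8 rose and 1 fell of 16, where 36.1% were called. Csa7G374620 and Csa7G374630, 9S-lipoxygenase names that share 1 closest entry, gave 2.52 ± 0.59 (adjusted p = 0.0302) and 3.07 ± 0.68 (adjusted p = 0.0249) on the log2 scale. Csa4G288070, a chloroplastic 13S-lipoxygenase name, had 14, 26 and 13 counts in the double mutant and 0 in every other library, at least 15.3-fold over the floor for WT (adjusted p = 0.0415). It passed the filter on low counts through the double mutant alone, so it could only be called higher there. None of these 3 calls held when any 1 double mutant or WT library was left out, while 5 genes were called without Csalc replicate 2.

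In the single mutants against WT, edgeR called 0 of these 15 genes. Csa4G288070 had 0 counts in Csspt, Csalc and WT, and Csa2G028490 had 0 in Csspt and WT. Those comparisons could therefore not call them. At an unadjusted p under 0.05 there were 0 in Csspt and 2 in Csalc, and DESeq2 called 0 in each. Of all tested genes, 0.0584% were called in Csspt and 0.785% in Csalc. At an unadjusted p under 0.05 by edgeR there were 1415 and 4387 of 18850, and DESeq2 called 321 and 1595.

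On the list of enzymes that act after lipoxygenases, the only gene called with 12 libraries does not use the lipoxygenase product. Of 16 genes on this list, 12 were tested, and 1 rose and 0 fell in the double mutant, with a median log2 fold change of 0.71 (5 rose and 0 fell without Csalc replicate 3). Beside this, 7.18% of all tested genes were called, or 36.1% without that library, where 3668 of 19060 were called higher. The riser was alpha-dioxygenase 2 (Csa1G024920), which oxidises fatty acids at the alpha carbon and does not use the lipoxygenase product. It had 206, 124 and 105 CPM in the double mutant, 104, 131 and 154 in Csspt, 47.6, 29.9 and 36.8 in Csalc, and 63.8, 55.6 and 73.9 in WT (log2 fold change in the double mutant against WT 1.17 ± 0.27, adjusted p = 0.0296 by edgeR). Its Csspt libraries overlapped those of the double mutant, which those of no member did.

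Among genes for fatty acid release and desaturation, which supply the substrates, 27 of 43 were tested, and 3 rose and 0 fell in the double mutant (median 0.17; 7 rose and 6 fell of 28 without Csalc replicate 3). Over all tested genes, 3.77% were called higher with 12 libraries, and 36.1% were called in either direction without that library. All 3 are phospholipase A1 names, enzymes that free fatty acids from membrane lipids. Phospholipase A1-IIgamma (Csa6G519470) had 7.65, 4.55 and 5.56 CPM in the double mutant against 0.55, 0.54 and 0.884 in WT (log2 fold change 3.17 ± 0.68, adjusted p = 0.0218 by edgeR). Phospholipase A1-Ibeta2 (Csa3G914060) and PLIP1 (Csa7G325710) gave 2.60 ± 0.50 (adjusted p = 0.0136) and 2.45 ± 0.56 (adjusted p = 0.0275).

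With 12 libraries, no jasmonate signalling gene was called higher in the double mutant by edgeR. Of 25, 23 were tested, and 0 rose and 1 fell (7 had an unadjusted p under 0.05; median -0.29; 3 rose and 6 fell without Csalc replicate 3). Among all tested genes, 7.18% were called with 12 libraries and 36.1% without Csalc replicate 3. The gene that fell was Ninja-family protein AFP3 (Csa3G633290), with 28.8, 32.2 and 45.7 CPM in the double mutant and 82.5, 73.3 and 70.4 in WT (log2 fold change -1.08 ± 0.21, adjusted p = 0.0138 by edgeR). AFP proteins of this family act in abscisic acid responses in Arabidopsis. In the single mutants, edgeR called 0 genes of these 3 pathway lists, with 6 in Csspt and 11 in Csalc at an unadjusted p under 0.05, and DESeq2 called 4 and 6. Of all 18850 tested genes, 1415 in Csspt and 4387 in Csalc had an unadjusted p under 0.05 by edgeR, and DESeq2 called 321 and 1595. Without Csalc replicate 3, edgeR called 5 in Csspt and 3 in Csalc, where 4.72% and 4.36% of tested genes were called. Without Csalc replicate 1, it called 4 in Csalc, where 1271 of 19175 tested genes were called. The 5 calls of these lists in the double mutant became 0 without double mutant replicate 1 or WT replicate 1, 1 without WT replicate 2, and 2 without double mutant replicate 2 or WT replicate 3. They became 8 without Csalc replicate 1 and 27 without Csalc replicate 3.

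The genes most like the members had varied names, and among them NAC86 and RTM2 are tied to the phloem in Arabidopsis. Over 14121 genes with an informative name, the 10 highest correlations with the mean log2 CPM of the members over 12 libraries were 0.957 to 0.985, and the libraries share the genotype differences. NDR1/HIN1-like protein 26 (Csa1G064760) came first, with a mean of 7.68 CPM in the double mutant, 1.3 in Csspt, 1.14 in Csalc and 0.511 in WT. NAC86 (Csa5G324000), which in Arabidopsis acts in the enucleation of sieve elements, the conducting cells of the phloem, correlated at 0.974. It had 19, 10.3 and 11.8 CPM in the double mutant, 4.93, 1.33 and 1.54 in Csspt, 1.12, 1.51 and 3.07 in Csalc, and 0.724, 1.02 and 0.72 in WT, and so was high in Csspt replicate 1 and Csalc replicate 3, as Csa2G023900 and Csa2G023920 were.

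The remaining genes of high likeness differed in level and size of change. They were Csa3G115610 (cytochrome c oxidase subunit 6a), Csa3G214070 (a thaumatin-like protein), Csa6G324880 (desiccation-related protein PCC13-62), Csa6G046380 (RTM2, a phloem protein in Arabidopsis), Csa3G119310, Csa4G113150, Csa2G338820 and Csa2G433370. Csa3G115610 had only a small difference, with means of 154 CPM in the double mutant and 115 in WT, whereas Csa6G324880 had 50.7 and 4.53.

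Some markers of vascular tissue were higher in the double mutant, and others were not. The 22 phloem markers summed to 449 to 569 CPM in the double mutant, 342 to 405 in Csspt, 296 to 340 in Csalc and 299 to 339 in WT, with 4 of 18 tested genes higher and 0 lower in the double mutant against WT (11 and 1 of 19 without Csalc replicate 3), where 3.77% of all tested genes were higher with 12 libraries and 36.1% were called without that library. The 4 were all among the 10 genes named SIEVE ELEMENT OCCLUSION, which summed to 284, 204 and 206 CPM in the double mutant, 127, 29.2 and 35.9 in Csspt, 29.8, 44.7 and 97.5 in Csalc, and 41.3, 42.2 and 28.5 in WT. The 9 genes named PHLOEM PROTEIN 2, phloem lectins, summed to 270, 246 and 231 CPM in the double mutant and 269, 288 and 261 in WT, and 0 of 6 tested were called by edgeR, with 2 at an unadjusted p under 0.05. SIEVE ELEMENT OCCLUSION B (Csa2G196900), a protein of sieve elements, had 48.6, 19.6 and 35.1 CPM in the double mutant, 3.36, 0.295 and 0.377 in Csspt, 0.446, 0.237 and 3.83 in Csalc, and 0.347, 0.445 and 0.196 in WT (log2 fold change in the double mutant against WT 6.69 ± 1.30, adjusted p = 0.015 by edgeR). Its high single mutant libraries, Csspt replicate 1 and Csalc replicate 3, were those of the first run of members.

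The 18 xylem markers summed to 91.2 to 99.5 CPM in the double mutant, 45.6 to 73.4 in Csspt, 43.3 to 55.3 in Csalc and 53.1 to 56.6 in WT, with 3 of 13 tested genes higher and 0 lower in the double mutant against WT (7 and 0 without Csalc replicate 3), and 1 marker at 0 in every library. The phloem and xylem sums in Csalc overlapped those in WT. Most of the phloem sum in both came from the PHLOEM PROTEIN 2 genes, at 260, 282 and 227 CPM in Csalc and 269, 288 and 261 in WT. The cellulose synthase CesA7 (Csa2G070320), which builds secondary walls, had 5.22, 3.88 and 5.25 CPM in the double mutant and 0.84, 0.254 and 0.491 in WT (3.16 ± 0.68, adjusted p = 0.0217 by edgeR). Photosynthesis genes summed to 4487 to 5406 CPM in the double mutant, 2900 to 3885 in Csspt, 581 to 4068 in Csalc and 2940 to 3245 in WT (6 higher and 0 lower of 42 in the double mutant, or 30 and 2 of 43 without Csalc replicate 3). Beside the xylem and photosynthesis counts, 3.77% of all tested genes were higher with 12 libraries, and 3668 of 19060 without Csalc replicate 3. The 581 CPM was in Csalc replicate 3, the Csalc library with the highest level of each member that had reads there. What part the amount of vascular or green tissue in a library has in the levels of the members was not tested.

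The other marker lists are given as summed levels and as genes called in the double mutant against WT. For comparison, 7.18% of all tested genes were called with 12 libraries, and 3.77% were called higher. Without Csalc replicate 3, 36.1% were called, and 3668 of 19060 were higher. Pollen markers summed to 28.7 to 36.4 CPM in the double mutant and 55 to 62.2 in WT, with 0 of 9 called by edgeR and 1 at an unadjusted p under 0.05 (1 higher and 1 lower without Csalc replicate 3). Ovule and seed markers summed to 119 to 151 CPM in the double mutant and 144 to 167 in WT, with 0 higher and 1 lower of 8 (0 and 3 of 9 without Csalc replicate 3). Carpel markers summed to 295 to 337 CPM in the double mutant and 320 to 352 in WT, with 1 higher and 3 lower of 12 (1 and 5 without Csalc replicate 3). Most of this sum was AGAMOUS (Csa6G520410), with means of 241 and 201 CPM in the double mutant and WT. Single markers differed more in these means: WIP2 (Csa3G810580) had 6.32 and 46, SPATULA (Csa2G356640) 24.5 and 47.9, and a further AGAMOUS name (Csa1G467100) 15.7 and 3.54. Defence proteins summed to 1635 to 1754 CPM in the double mutant and 1898 to 2084 in WT, although 7 of 46 were higher and 1 lower (20 and 5 of 50 without Csalc replicate 3).

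**Figure D5:**
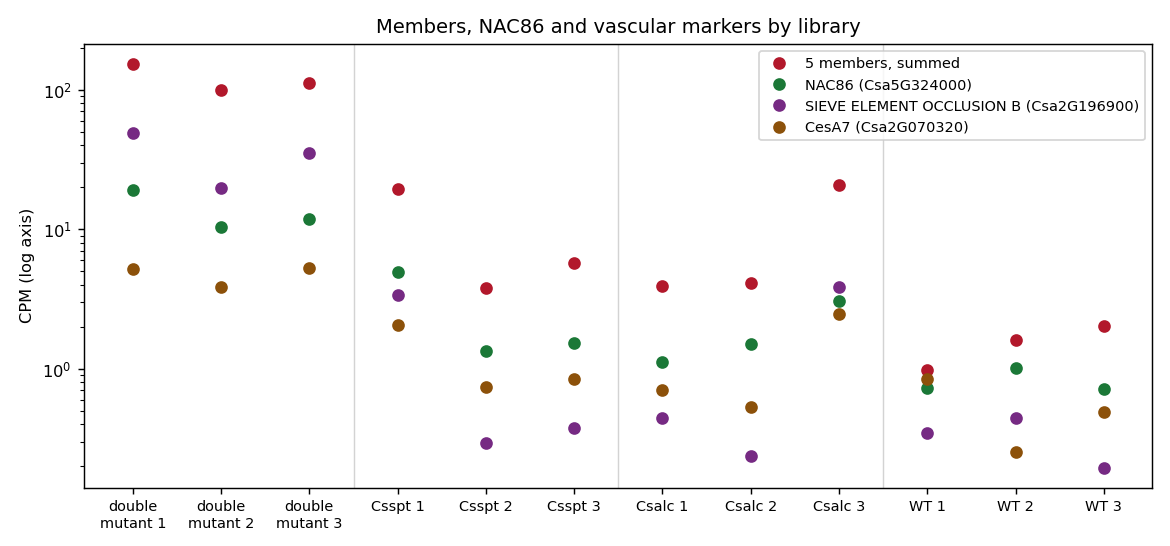
CPM (log axis) of the 5 members summed, NAC86, SIEVE ELEMENT OCCLUSION B (Csa2G196900) and CesA7 (Csa2G070320) in each library of the double mutant, Csspt, Csalc and WT. All 4 are highest in the double mutant, and within the single mutants all 4 are highest in Csspt replicate 1 and Csalc replicate 3. The vascular genes shown are single genes of their lists, and other markers, not shown, did not all follow them. The PHLOEM PROTEIN 2 genes summed to 260, 282 and 227 CPM in Csalc replicates 1, 2 and 3. The xylem marker Laccase-3 (Csa1G533470) had 5.04, 1.63 and 1.97 CPM there.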

How the data were processed

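RNA of cucumber stigma and style was sequenced by the submitters from an Illumina NEBNext library, per the labels' protocols. HISAT2, HISAT and DESeq2 are named in the submitters' processing notes; for versions, genome build, annotation and read counter, the entry is: not given in the sources used here. Per the file headers, the authors deposited whole-number read counts and FPKM values for every library. The FPKM scaling by gene length and depth is the authors' own, per the file headers. Names come from the deposited annotation; no ID was found in the RefSeq table itself, so models were joined to it through their closest KEGG cucumber entry (45 of 45 lipoxygenase genes), and no coordinates or sequences are given.

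Counts were tested in R 4.3.3 with edgeR 4.0.16: filterByExpr with a minimum count of 10, TMM, and glmQLFit and glmQLFTest on all 4 genotypes in 1 fit, Benjamini-Hochberg over all tested genes per contrast and a threshold of 0.05. CPM is the count scaled to a common library size, with a prior count of 2 where log2 values were correlated. SE is the log2 fold change over the root of F. The scripts were tested on simulated data. DESeq2 1.42.0, size factors in place of TMM, no filter, a fit of the compared groups, a replicate block and each library left out were alternatives. No replicate pair was alike within counting noise (lowest chi-square ratio to its degrees of freedom 14.1), and p-values measure the spread between them. Members and gene lists were chosen with earlier results of these data known. Named genes are the members, other lipoxygenases called in the double mutant, up to 4 called genes per list by size of change, the 10 genes of highest correlation with the members, and the 5 IDs on each side of each run. Lipoxygenases of the chromosome 2 run and marker examples beyond this were chosen after their values were seen.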

Additional observations from a re-analysis of the deposited data

How the results depend on the processing

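In the double mutant against WT, the contrast that chose the members, the alternatives gave log2 fold changes of 5.79 to 6.18 for Csa2G023900 and 4.98 to 6.58 for Csa2G028480 when 1 library was left out, and, with the zeros taken as counts, a bound of 352 to 614 for Csa2G023910, for which no other setting was run. Without WT replicate 3, Csa2G028500 is at 0 in WT and has no fitted fold. Between Csspt and Csalc, 0 members were called in each alternative. With 1 library left out, the log2 values were -0.74 to 1.33 for Csa2G023900, -0.56 to 1.25 for Csa2G023920, -2.20 to 1.25 for Csa2G028480 and -1.83 to 0.14 for Csa2G028500. The sign turned without Csspt replicate 1 for the first run, and without Csalc replicate 3 for the second. The counts of other genes moved more. For the other lipoxygenases in the double mutant, 3 calls became 5 with DESeq2, 9 in a fit of the compared groups and 0 to 9 with 1 library left out. For the pathway lists, 5 calls became 15 with DESeq2, 25 in that fit and 0 to 27. Calls over all tested genes moved too, from 1353 to 2940 with DESeq2, 6638 in that fit and 6875 without Csalc replicate 3. In Csspt, the fit of the compared groups called 2 other lipoxygenases and 7 pathway genes, against 0 in the main setting, and 1219 of all 18015 tested genes. There, DESeq2 called 4 pathway genes and omissions gave 0 to 5. In Csalc, DESeq2 called 6 pathway genes and omissions gave 0 to 4. Replicate numbers did not pair the samples (correlations of deviations -0.252 to 0.208, and 2 of 12 libraries closest to their own number); with a replicate block, 0 other lipoxygenases and 3 pathway genes were called. Low counts limit Csa2G028500 and Csa2G028480 in WT, at 4 and 12 counts in all. The cause of these shifts was not tested.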
